A study of Mus musculus with 15 samples.

Results

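CC chemokines are small secreted proteins in which the first pair of cysteines lies side by side, and they draw leukocytes towards their source. The genes described here are Ccl2, Ccl7, Ccl8, Ccl3, Ccl4, Ccl5, Ccl6, Ccl9 and Ccl24, which were taken as every probe set annotated to exactly 1 of these symbols. This gave 9 of 18193 genes and 11 of 45037 probe sets, as Ccl6 and Ccl9 each had 2 probe sets, and each gene was represented by its brightest probe set, by the mean of all arrays. Foam cells, the lipid-filled macrophages of atherosclerotic lesions, were laser-captured from sections of the aortic sinus of C57BL/6 ApoE-/- mice, which lack apolipoprotein E in every group and so carry high blood cholesterol. Their amplified RNA was hybridised to 15 Affymetrix arrays, 5 in each of 3 diet groups. CHOW mice ate regular chow up to week 22. The 2w-WD mice had a western-type diet for 2 weeks, after 20 weeks of chow by the sample labels but between weeks 22 and 24 by the series text, so their age is uncertain. The 14w-WD mice received this diet from week 8 to week 22, 14 weeks in all. Which animal or animals an array came from is not in the labels, and the p-values therefore rest on the spread among arrays of a group, part of which may be technical.

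The chemokines of this family act through G protein-coupled receptors of the CCR type, and most ligands share receptors with others. CCL2 acting on CCR2 is known for bringing monocytes out of the bone marrow and into atherosclerotic lesions, and CCL5 is known for recruiting T cells and monocytes there. Many of these genes are switched on in macrophages by NF-kB, the transcription factor of inflammatory signals, or by interferons.

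Array medians lay between intensities of 31.7 and 38.2, and 991 to 1238 values of each array stood at exactly 1. All 7 macrophage markers of a fixed list (Cd68, Adgre1, Csf1r, Lyz2, Mpeg1, Fcgr1 and Mertk) had medians above the filter level, an intensity of 34.6, in each group. Markers of heart muscle were bright as well, with a summed intensity over 8 genes of 2055 to 51157 in CHOW, 51710 to 86380 in 2w-WD and 24846 to 65720 in 14w-WD. Among 13 lists of cell type markers, genes past the test were found in 14w-WD over 2w-WD alone. They were Col1a1 and Pdgfra of 4 fibroblast genes and Folr2 of 4 resident macrophage genes, which were higher, and Kit of 3 mast cell genes, which was lower, in a comparison where 10.1% of all genes were higher and 1.15% lower. The percentage of probe sets brighter than 100 ran from 20.4% to 24.7% in CHOW, from 18.2% to 25.7% in 2w-WD and from 22.5% to 27.2% in 14w-WD. Over all 11925 genes tested, the median log2 change was 0.16 in 14w-WD over CHOW, -0.10 in 2w-WD over CHOW and 0.23 in 14w-WD over 2w-WD, and quantile normalization brought these to 8.7e-05, -0.03 and 0.0071.

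Of the 9 genes, 7 had a mean at or above the filter level and were tested, while Ccl7 and Ccl24 lay below it. By limma with Benjamini-Hochberg adjustment over all 11925 genes, 0 of the 7 passed in 14w-WD over CHOW, where 0.00839% of all genes did. In 2w-WD over CHOW 0 of the 7 passed, with 0% of all genes, and in 14w-WD over 2w-WD 0 of the 7 passed, with 11.2% of all genes. At an unadjusted p under 0.05, Ccl4 and Ccl8 were past it in 14w-WD over CHOW (15.9% of all genes), Ccl2 and Ccl4 in 2w-WD over CHOW (9.76%), and Ccl8 in 14w-WD over 2w-WD (32.1%). Groups without overlap were found for 0 of the 7 in 14w-WD over CHOW (4.87% of all genes, 3.09% higher and 1.79% lower) and for 0 of the 7 in 14w-WD over 2w-WD (8.63%, 7.06% higher and 1.57% lower). In 2w-WD over CHOW there was 1, Ccl4 (1.12% of all genes, 0.294% higher and 0.83% lower). Ccl8 had the largest difference among the 7, about 5-fold in 14w-WD over both other groups. Its 5 arrays of each group varied widely, and after adjustment over all 11925 genes its p stayed above 0.05. Ccl2 and Ccl4 stood highest in 2w-WD, and Ccl6 and Ccl9 were bright and nearly level across the diets.

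**Figure D1:**
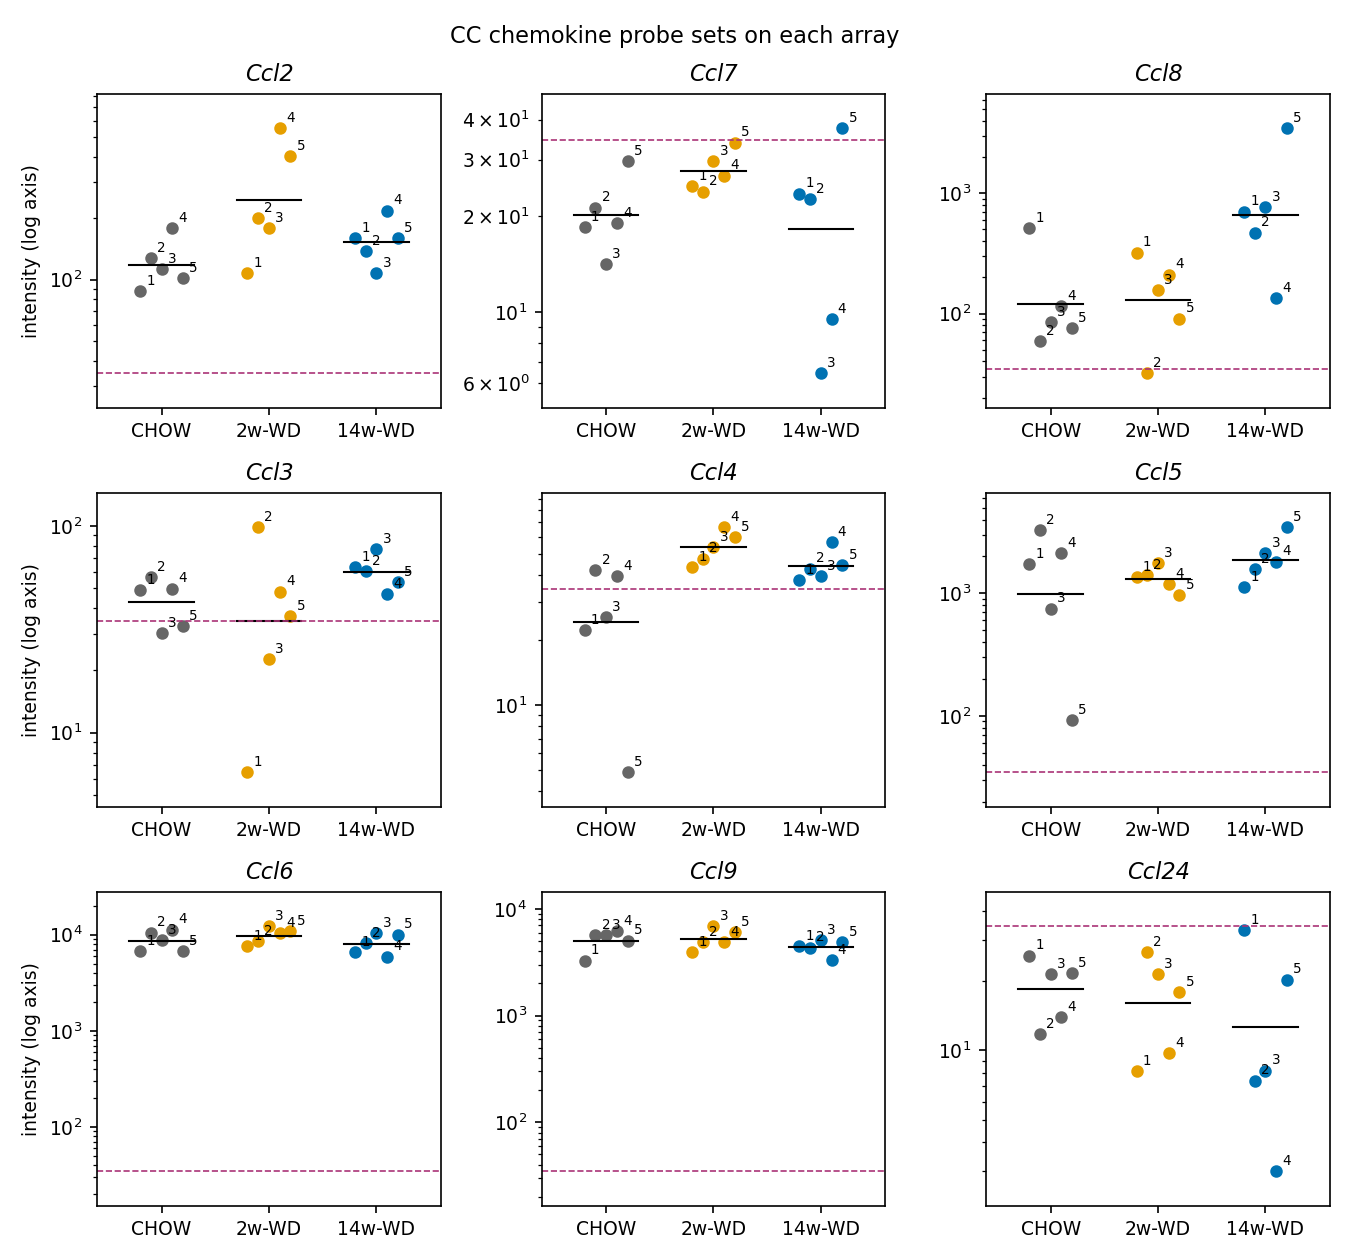
Intensity of each CC chemokine on each array (points, numbered by replicate, log axis) by diet group, with the mean of log2(intensity + 16) drawn back on the intensity scale as a bar and the filter level of 34.6 as a dashed line. Ccl8 spreads from 31.9 to 3493 with 4 of 5 14w-WD arrays above every 2w-WD array, the 5 2w-WD arrays of Ccl4 lie above all 5 CHOW arrays, and Ccl7 and Ccl24 lie at or below the dashed line on nearly every array.

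Ccl2, Ccl7 and Ccl8 encode monocyte chemoattractant proteins. CCL8 in mice is known as an agonist of CCR8, a receptor of T helper cells of the type 2 kind, besides its place in this subgroup. Because Ccl8 carried the largest difference, the 250 bases before its start are shown, from RefSeq on build GRCm38.p6, chr11:82114935-82115184 on the plus strand, with a TATA box match (TATAAA) in capitals.
Ccl8 promoter: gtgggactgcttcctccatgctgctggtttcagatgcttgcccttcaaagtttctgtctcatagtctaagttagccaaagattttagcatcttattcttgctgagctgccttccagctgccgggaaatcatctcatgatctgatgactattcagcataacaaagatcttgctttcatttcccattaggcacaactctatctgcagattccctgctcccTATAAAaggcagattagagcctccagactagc
The capitals begin 32 bases before the start, and 7.59% of 32851 mouse promoters held these letters on the gene's strand in the same length. A search of both strands for the NF-kB letters (GGG and CC with any 5 bases between, in 45.8% of all promoters), the interferon response core (GAAA and GAAA with any 2 bases between, 2.98%), the STAT letters TTCNNNGAA (7.02%) and the ETS core GGAAGT (19.7%) found no match in this window. Promoter sequences were at hand for 4 of the 9 genes, Ccl3, Ccl6, Ccl8 and Ccl9.

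Ccl8 had intensities of 515, 59.0, 85.0, 115 and 75.2 on the 5 CHOW arrays, 320, 31.9, 156, 211 and 90.7 on the 2w-WD arrays, and 702, 470, 764, 135 and 3493 on the 14w-WD arrays. Replicate 5 of 14w-WD stood far above the other 14 arrays, and replicate 4 of 14w-WD lay below replicate 1 of CHOW. The groups overlapped, with 3 of 5 14w-WD arrays above every CHOW array and 4 of 5 above every 2w-WD array, while all 5 lay above the CHOW median. On the log2(intensity + 16) scale Ccl8 averaged 9.41 ± 1.63 in 14w-WD and 7.10 ± 1.13 in CHOW (SD, n = 5 each), a 4.96-fold difference and a log2 change of 2.31 (SE 0.72, 95% interval 0.80 to 3.83, limma adjusted p = 0.160). Against 2w-WD, at 7.19 ± 1.08 (SD, n = 5), the log2 change of 14w-WD was 2.22 (SE 0.72, 95% interval 0.70 to 3.73, limma adjusted p = 0.0543). In 2w-WD over CHOW it was 0.10, with an interval of -1.42 to 1.61 and a limma adjusted p of 0.970. In a bulk capture such as this, fewer cells of a type and less RNA per cell cannot be told apart.

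Single arrays moved Ccl8 across the threshold. Without 2w-WD replicate 1 the log2 change in 14w-WD over 2w-WD was 2.52 (limma adjusted p = 0.0209), and leaving out 14w-WD replicate 5 gave 1.62 (limma adjusted p = 0.124), within a range of 0.0209 to 0.139 over the 15 fits that each leave out 1 array. In 14w-WD over CHOW the same 15 fits gave log2 changes of 1.72, without 14w-WD replicate 5, to 2.85, with adjusted p from 0.0592 to 0.346. With weights for arrays of differing quality the log2 change was 2.66 in 14w-WD over 2w-WD (limma adjusted p = 0.00733) and 2.84 in 14w-WD over CHOW (limma adjusted p = 0.00688). The lowest weights were 0.299 for 2w-WD replicate 1, 0.364 for CHOW replicate 1 and 0.394 for 2w-WD replicate 4.

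The brightness of the whole array was set beside Ccl8. The highest Ccl8 arrays of CHOW and of 2w-WD, replicate 1 in both, had the highest shares of probe sets above 100 in their groups, 24.7% and 25.7%, and the lowest Ccl8 array of 14w-WD, replicate 4, had the lowest share, 22.5%. The 14w-WD array with by far the most Ccl8, replicate 5, had 24.1%, inside the range of its group. The other 2w-WD arrays did not follow this order, as replicate 4 had the lowest share of all 15 arrays, 18.2%, with the second brightest Ccl8 of its group, 211, and replicate 2 had 20.2% with the dimmest Ccl8 of all, 31.9. With this share as a covariate the log2 change of Ccl8 was 1.06 in 14w-WD over 2w-WD (limma adjusted p = 0.775) and 1.40 in 14w-WD over CHOW (limma adjusted p = 0.870), and 0 genes of 11925 passed in either comparison. The share itself is highest in 14w-WD, so that the diet and the brightness cannot be told apart by this fit.

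**Figure D2:**
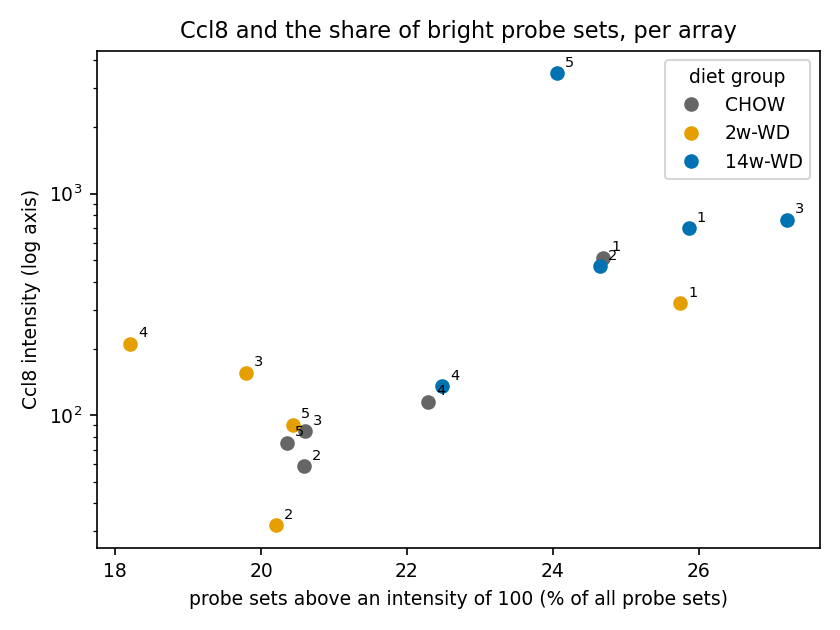
Ccl8 intensity (log axis) against the percentage of probe sets brighter than 100 on the same array, 1 point per array, coloured by diet group and numbered by replicate. Replicate 1 of CHOW and of 2w-WD lie at shares of 24.7% and 25.7% with the most Ccl8 of their groups, and replicate 5 of 14w-WD lies at 24.1% with 3493.

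Folr2, the folate receptor gene of resident tissue macrophages, also stood highest in 14w-WD. Its intensities were 372, 204, 222, 85.3 and 129 in 14w-WD, against 72.3, 65.1, 64.2, 26.1 and 65.9 in 2w-WD, without overlap. The log2 change was 1.45 (SE 0.33, limma adjusted p = 0.0178), and in 14w-WD over CHOW it was 1.23 (limma adjusted p = 0.123). The 5 resident macrophage markers Lyve1, Folr2, F13a1, Cd163 and Timd4 had summed intensities of 249 to 437 in CHOW, 242 to 3687 in 2w-WD and 447 to 838 in 14w-WD. The highest sum in 2w-WD belonged to replicate 1, the brightest 2w-WD array for Ccl8. In the other groups the highest sum and the brightest Ccl8 fell on different arrays. The highest 14w-WD sum, 838, was on replicate 4, the dimmest 14w-WD array for Ccl8. Replicate 5 of 14w-WD, the brightest for Ccl8, had a sum of 452. The highest CHOW sum, 437, was on replicate 4, whereas Ccl8 was brightest on CHOW replicate 1. Timd4 lay below the filter level in each group, and 1 of the 4 genes tested, Folr2, passed the test. Lyve1, F13a1 and Cd163 had log2 changes of -1.03, -0.03 and 0.11 in 14w-WD over 2w-WD. In 14w-WD over CHOW these were -0.04, 0.51 and 0.91 in the same order. The part of such cells in the Ccl8 values was not tested. Calhm6 and Primpol had the patterns closest to Ccl8 together with Aga. The mean absolute distance between levels centred on each gene's own mean, over 15 arrays, was 0.66 log2 units for Primpol, 0.68 for Calhm6 and 0.70 for Aga, beside 1.31 for the mean deviation of Ccl8 from its own mean.

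Ccl2, the best known monocyte attractant of the family, stood highest in 2w-WD. Ccl2 had intensities of 87.5, 128, 112, 179 and 102 in CHOW, 107, 200, 179, 556 and 404 in 2w-WD, and 159, 138, 108, 218 and 159 in 14w-WD. Replicates 4 and 5 of 2w-WD were the brightest of all 15 arrays, 4 of the 5 2w-WD arrays lay above every CHOW array, and replicate 1 of 2w-WD lay within the CHOW range. The mean was 8.04 ± 0.89 in 2w-WD and 7.07 ± 0.35 in CHOW (log2, SD, n = 5 each), a 1.96-fold difference. The log2 change of 0.97 (SE 0.36, 95% interval 0.21 to 1.72) had a limma adjusted p of 0.485. In 14w-WD over CHOW it was 0.33 with an interval of -0.43 to 1.09 (limma adjusted p = 0.661), and in 14w-WD over 2w-WD it was -0.64 with an interval of -1.40 to 0.12 (limma adjusted p = 0.223). Without 2w-WD replicate 1 the last of these passed, at -0.91 (limma adjusted p = 0.0459, against 0.0459 to 0.499 over the fits that leave out 1 array), and with the share of bright probe sets as a covariate it turned to 0.079.

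Ccr2, which encodes the receptor of CCL2 and CCL7 on monocytes, was brightest on the same pair of arrays. Its intensities were 42.9, 61.3, 45.9, 161 and 36.6 in CHOW, 72.7, 139, 97.5, 278 and 296 in 2w-WD, and 102, 50.1, 258, 48.9 and 59.0 in 14w-WD. Replicates 4 and 5 of 2w-WD held the highest values of both Ccl2 and Ccr2, whereas 14w-WD replicate 3 was high for Ccr2 alone. The Ccr2 log2 change in 2w-WD over CHOW was 1.15 (SE 0.45, limma adjusted p = 0.492). Plac8, the other monocyte marker measured, had intensities of 14.8 to 324 in CHOW and 47.9 to 150 in 2w-WD. Its log2 change in 2w-WD over CHOW was 0.17 (limma adjusted p = 0.926). Of the neutrophil markers (S100a8, S100a9, Csf3r and Cxcr2, 4 of 5 listed on the array), S100a8 made up most of the summed intensity. The sums were 2651, 3646, 14265, 7335 and 15671 in 2w-WD and 3244 to 5770 in CHOW. S100a8 alone ran from 2431 to 14170 in 2w-WD and from 2911 to 5631 in CHOW. In 2w-WD over CHOW the log2 change was 0.73 for S100a8, 1.06 for S100a9 and -0.29 for Csf3r (limma adjusted p = 0.587, 0.657 and 0.797). Cxcr2 lay below the filter level in each group. The part of monocytes or neutrophils in the Ccl2 values was not tested. By the same distance as for Ccl8, the genes closest in pattern to Ccl2 were Fzd10 (0.30 log2 units), Dnaic2 (0.33) and Scn2a (0.33), beside a mean deviation of 0.49 for Ccl2 itself.

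**Figure D3:**
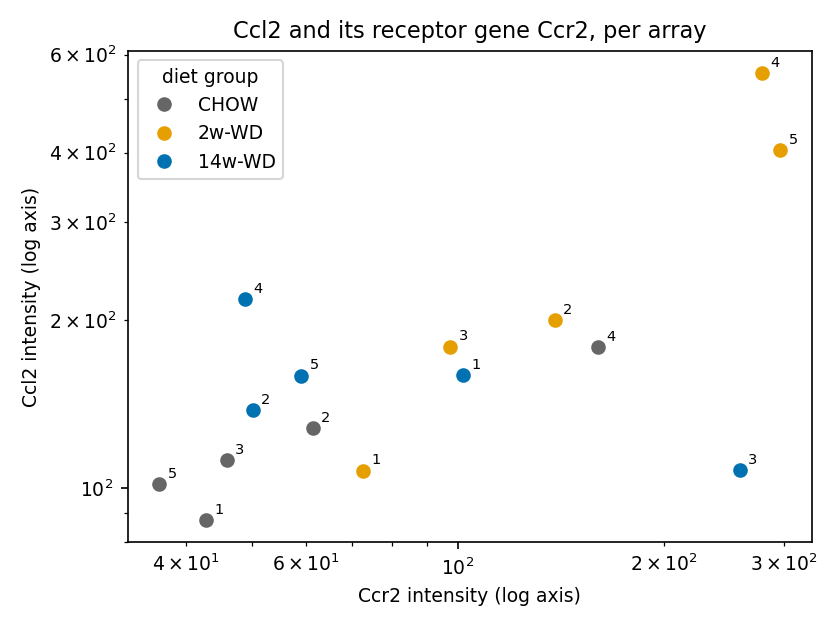
Ccl2 intensity against Ccr2 intensity on the same array (both log axes), 1 point per array, coloured by diet group and numbered by replicate. Replicates 4 and 5 of 2w-WD lie at the upper right with Ccl2 at 556 and 404, and 14w-WD replicate 3 lies apart with a Ccr2 of 258 and a Ccl2 of 108.

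Ccl7, whose product shares CCR2 with CCL2, was dim. Its probe set reached the filter level on 1 of 15 arrays and ranged from 14.1 to 29.7 in CHOW, from 23.8 to 33.9 in 2w-WD and from 6.45 to 37.7 in 14w-WD. In a fit without the filter its log2 changes were -0.08 in 14w-WD over CHOW, 0.27 in 2w-WD over CHOW and -0.35 in 14w-WD over 2w-WD (limma adjusted p = 0.883, 0.709 and 0.297). Ccl12, a further CCR2 ligand of mice that lies between Ccl7 and Ccl8 on the chromosome, was chosen after its values were seen. It had intensities of 27.3, 1.00, 14.0, 26.6 and 21.4 in 14w-WD and of 1.00 to 4.95 in CHOW and 2w-WD together, all below the filter level. Without the filter its log2 change was 0.76 in 14w-WD over 2w-WD (limma adjusted p = 0.0402) and 0.78 in 14w-WD over CHOW (limma adjusted p = 0.136). Ccl12 was not among the genes tested with the filter, of which 11.2% passed in 14w-WD over 2w-WD.

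Ccl3, Ccl4 and Ccl5 encode the macrophage inflammatory proteins and RANTES, attractants of T cells and monocytes. Ccl4 had intensities of 22.2, 42.2, 25.6, 39.4 and 4.89 in CHOW, 43.3, 47.6, 53.7, 66.8 and 60.1 in 2w-WD, and 37.8, 42.8, 39.4, 56.8 and 44.4 in 14w-WD. Every 2w-WD array lay above every CHOW array, a separation that 0.294% of all genes showed upwards and 1.12% in either direction. All 5 14w-WD arrays lay above the CHOW median but 2 of them fell within the CHOW range. The log2 mean was 6.12 ± 0.19 in 2w-WD and 5.33 ± 0.59 in CHOW (SD, n = 5 each), a 1.73-fold difference with a log2 change of 0.79 (SE 0.24, 95% interval 0.29 to 1.29, limma adjusted p = 0.48). In 14w-WD over CHOW the log2 change was 0.57 (SE 0.24, interval 0.07 to 1.07, limma adjusted p = 0.261), and in 14w-WD over 2w-WD it was -0.22 (interval -0.72 to 0.28, limma adjusted p = 0.528). These levels were close to the filter level, which 12 of 15 arrays reached, but only 2 of 5 in CHOW. The CHOW mean lay below the filter level (log2 5.66), and the means of 2w-WD (6.12) and 14w-WD (5.90) lay above it. Ccl4 was thus among the genes tested through its values in the western diet groups. The shares of all genes given above do not allow for this. Without CHOW replicate 5, the dimmest Ccl4 array, the changes over CHOW were 0.55 for 2w-WD and 0.33 for 14w-WD. The closest patterns to Ccl4 were those of Synj1 (0.22 log2 units), Tstd2 (0.24) and Ssbp1 (0.24), beside 0.32 for Ccl4 itself.

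Ccl3 was as near to the filter level, reached on 11 of 15 arrays. It had intensities of 49.0, 56.7, 30.4, 49.7 and 32.7 in CHOW, 6.43, 98.8, 22.7, 48.0 and 36.7 in 2w-WD, and 63.1, 60.1, 77.5, 46.7 and 53.5 in 14w-WD. The 2w-WD arrays held both the lowest and the highest value, and the 14w-WD arrays were the most alike and all lay above the 2w-WD median. Its log2 change was 0.36 in 14w-WD over CHOW (interval -0.31 to 1.03, limma adjusted p = 0.582), -0.21 in 2w-WD over CHOW (interval -0.88 to 0.46, limma adjusted p = 0.825) and 0.57 in 14w-WD over 2w-WD (interval -0.09 to 1.24, limma adjusted p = 0.215). Without 2w-WD replicate 1 the 2w-WD over CHOW value turned to 0.083.

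Ccl5, which T cells, platelets and macrophages are known to release, was far above the filter level on all 15 arrays. It had intensities of 1731, 3283, 749, 2114 and 92.5 in CHOW, 1349, 1411, 1760, 1191 and 969 in 2w-WD, and 1118, 1575, 2134, 1817 and 3484 in 14w-WD. CHOW replicate 5 lay well below all other arrays, and the groups overlapped otherwise. The mean was 10.89 ± 0.60 in 14w-WD and 9.97 ± 1.95 in CHOW (log2, SD, n = 5 each), with a log2 change of 0.92 (interval -0.47 to 2.31, limma adjusted p = 0.503) that fell to 0.12 without CHOW replicate 5. In 2w-WD over CHOW the log2 change was 0.40 (interval -0.99 to 1.79, limma adjusted p = 0.840) and turned to -0.40 without that array, and in 14w-WD over 2w-WD it was 0.52 (interval -0.87 to 1.91, limma adjusted p = 0.604). Markers of T and NK cells (7 of 8 listed on the array) had summed intensities of 459 to 501 in CHOW, 285 to 687 in 2w-WD and 388 to 709 in 14w-WD. The lowest CHOW sum was on that same replicate 5, close to the 489 of CHOW replicate 1. CHOW replicate 5 also had the lowest CHOW sum of macrophage markers, at 53852. The T cell receptor genes Cd3g and Cd3d and the granzyme gene Gzma had medians below the filter level in each group.

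Ccl6 and Ccl9 encode rodent chemokines that act on CCR1 and that macrophages are known to make without further stimulus, and they neighbour each other on chromosome 11. Their promoters are shown because the pair had the most similar order of arrays by the brightest probe set of each gene, as given below. From RefSeq on build GRCm38.p6, both on the minus strand, the 250 bases before the start lie at chr11:83593088-83593337 for Ccl6 and chr11:83578637-83578886 for Ccl9, with the stretch that aligns between them in capitals.
Ccl6 promoter: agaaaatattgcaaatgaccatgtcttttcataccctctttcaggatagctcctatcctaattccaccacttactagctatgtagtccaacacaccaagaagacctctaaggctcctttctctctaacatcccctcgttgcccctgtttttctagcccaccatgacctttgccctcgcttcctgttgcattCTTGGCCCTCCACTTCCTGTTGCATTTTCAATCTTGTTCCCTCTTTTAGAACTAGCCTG
Ccl9 promoter: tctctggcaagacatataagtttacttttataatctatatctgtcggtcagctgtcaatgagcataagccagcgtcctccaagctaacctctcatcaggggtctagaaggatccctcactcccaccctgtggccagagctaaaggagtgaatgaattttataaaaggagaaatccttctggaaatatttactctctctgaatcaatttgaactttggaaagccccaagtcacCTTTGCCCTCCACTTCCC
A local alignment that also took in the 50 bases after each start joined 74 columns, of which 59 were identical and 7 were gaps. It began 59 bases before the start in Ccl6 and 18 before it in Ccl9, so that most of it in Ccl9 lies after the start and is not printed. The ETS core GGAAGT, read on either strand, began 48 bases before the Ccl6 start and 7 before the Ccl9 start, both inside the capitals. Ccl9 held 1 match to the NF-kB letters, 35 bases before the start, and a TATAAA at 92, and Ccl6 held neither.

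Ccl6 had intensities of 6698, 10516, 8770, 11258 and 6724 in CHOW, 7589, 8514, 12331, 10300 and 10959 in 2w-WD, and 6559, 8135, 10337, 5916 and 9976 in 14w-WD. Ccl9 had 3268, 5686, 5640, 6206 and 5040 in CHOW, 3915, 4906, 6931, 4894 and 6026 in 2w-WD, and 4439, 4324, 5105, 3297 and 4880 in 14w-WD. The groups overlapped for both genes, the highest array over the lowest was 2.08-fold for Ccl6 and 2.12-fold for Ccl9, and for Ccl9 all 5 14w-WD arrays lay below the CHOW median. For Ccl6 the log2 changes were -0.10 in 14w-WD over CHOW (interval -0.51 to 0.30), 0.19 in 2w-WD over CHOW (-0.21 to 0.59) and -0.29 in 14w-WD over 2w-WD (-0.70 to 0.11). For Ccl9 they were -0.21 (-0.63 to 0.21), 0.05 (-0.36 to 0.47) and -0.26 (-0.68 to 0.15) in the same order, with limma adjusted p between 0.292 and 0.940 over both genes. These intervals leave room for differences of up to about 0.7 log2 units. The other probe set of Ccl6 lay between 5175 and 7753 on all arrays and gave -0.10, -0.12 and 0.016, so that the sign of both comparisons with 2w-WD turned. The other probe set of Ccl9 stayed between 4.17 and 30.0, below the filter level on every array.

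Ccl24, which encodes an eotaxin that draws eosinophils through CCR3, was below the filter level on all 15 arrays. Its probe set ranged from 11.8 to 25.7 in CHOW, from 8.16 to 26.6 in 2w-WD and from 3.00 to 33.1 in 14w-WD. Without the filter its log2 changes were -0.27 in 14w-WD over CHOW, -0.11 in 2w-WD over CHOW and -0.16 in 14w-WD over 2w-WD (limma adjusted p = 0.629, 0.911 and 0.705). Ccr3 was dim as well, at 3.09 to 22.5 over all arrays.

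**Figure D4:**
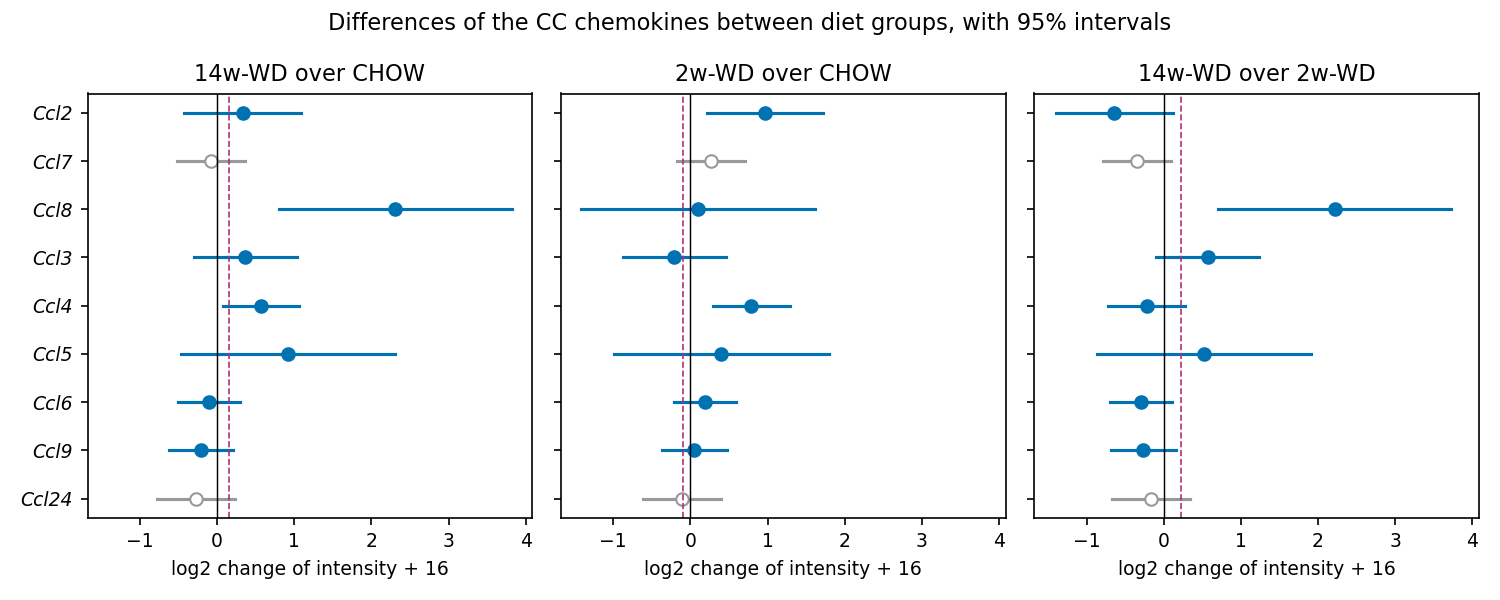
Log2 change of intensity + 16 for each CC chemokine in the 3 comparisons, with 95% intervals. Filled points are the 7 genes tested and open grey points are Ccl7 and Ccl24 from the fit without a filter, the dashed line is the median of all genes, and the intervals of Ccl8 lie above 0 in both comparisons of 14w-WD, as those of Ccl2 and Ccl4 do in 2w-WD over CHOW and that of Ccl4 in 14w-WD over CHOW, before any adjustment for the number of genes.

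Over all 15 arrays pooled, arrays ranked alike for some pairs of these genes, and differences between the diets are part of these ranks. For Ccl6 and Ccl9, each by its brightest probe set, the rank of an array among the 15 differed by 1.73 places on average. This was the least of the 36 pairs, and the difference was at most 3 places on 14 of 15 arrays. Ccl2 and Ccl4 came next at 1.87 places, with 12 of 15 arrays within 3 places and 2w-WD replicates 4 and 5 at ranks 1 and 2 for both. The median over the 36 pairs was 4.93 places, and Ccl8 and Ccl9 stood furthest apart at 7.07. The neighbours Ccl3 and Ccl4 differed by 5.6 places. The other probe set of Ccl6 was not ranked against Ccl9. It had its highest value, 7753, on CHOW replicate 1, where Ccl9 had its lowest, 3268, so the likeness of the pair depends on the Ccl6 probe set. Replicate 5 of 14w-WD was the highest array for Ccl5, Ccl7 and Ccl8, and replicate 3 of 2w-WD for Ccl6 and Ccl9. All values of an array share its RNA, amplification and scaling, so these ranks are a description of 15 arrays.

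Of the 9 genes, 8 lie on chromosome 11. Their order on assembly GRCm38.p6 is Ccl2, Ccl7, Ccl8, Ccl5, Ccl9, Ccl6, Ccl3 and Ccl4, with Ccl11 and Ccl12 between Ccl7 and Ccl8, and Ccl1 between Ccl8 and Ccl5. The group means of the neighbours did not share 1 order over the diets, though none of these differences passed the test. Ccl2 at one end and Ccl4 at the other had their highest mean in 2w-WD, and Ccl8 between them in 14w-WD. Ccl24 lies on chromosome 5.

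**Figure D5:**
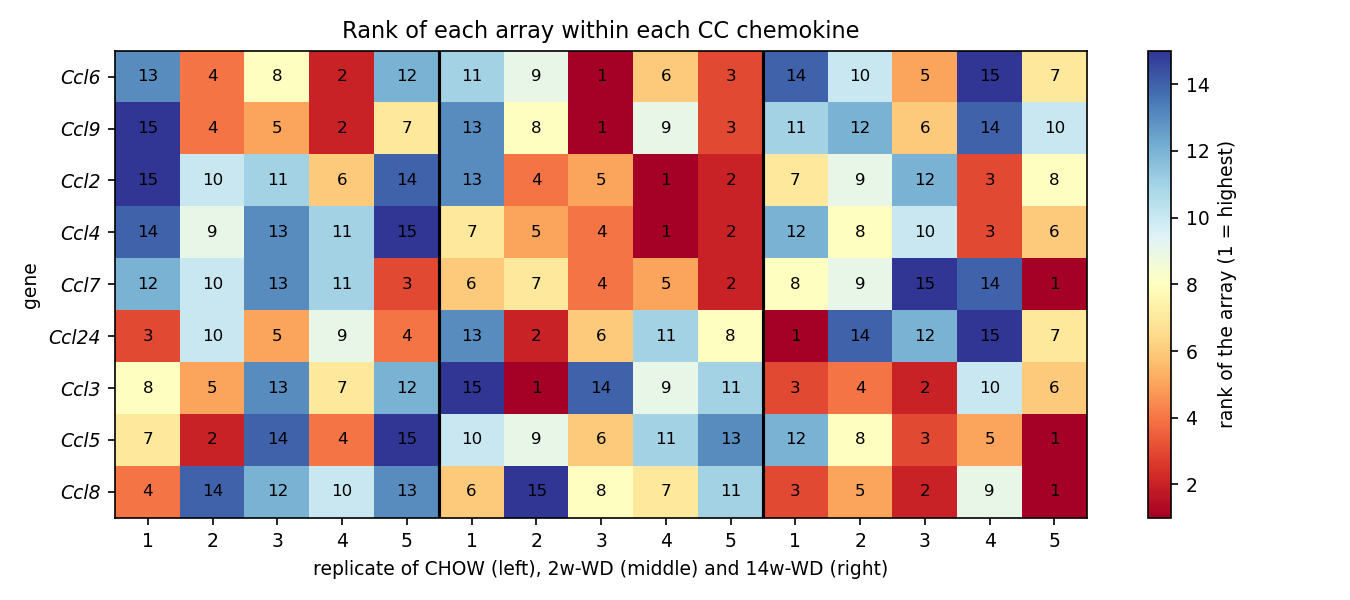
Rank of each of the 15 arrays (columns, by diet group and replicate) within each CC chemokine (rows), where 1 is the highest. Each gene is shown by its brightest probe set. Ccl6 and Ccl9 share ranks 1, 2, 3 and 4 on the same 4 arrays, and 2w-WD replicates 4 and 5 hold ranks 1 and 2 for Ccl2 and Ccl4.

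Receptor genes did not pass the test. Of 10 CC receptor genes measured, 5 were tested (Ccr2, Ccr4, Ccr6, Ccr9 and Ccrl2), with 0 past the test in the 3 comparisons. Ccr9, a homing receptor of intestinal T cells, came nearest, with intensities of 65.3 to 95.7 in 14w-WD and 94.5 to 160 in 2w-WD and a log2 change of -0.60 (limma adjusted p = 0.0790). Ccr1, the receptor of CCL6 and CCL9, had a mean below the filter level and was not tested, with intensities from 8.20 to 72.5 in 14w-WD and 16.5 to 42.3 in CHOW. The means of Ccr3, Ccr7, Ccr8 and Ccr10 were below it too. Of the 3 atypical receptor genes, which encode receptors that take up chemokines without signalling, Ackr1 and Ackr4 were tested and 0 passed. Of 12 other CC chemokine genes, 9 were on the array and 4 were tested (Ccl17, Ccl25, Ccl27a and Ccl28), again with 0 past the test, and the smallest adjusted p was 0.306 for Ccl27a in 14w-WD over CHOW, at a log2 change of 0.42.

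A few genes that control chemokine transcription passed the test in 14w-WD over 2w-WD, in counts close to the share of all genes. Of 10 tested genes of inflammatory inducers and NF-kB, 2 rose in 14w-WD over 2w-WD, where 10.1% of all genes did, and 0 fell, with a median log2 change of 1.04 beside 0.23 over all genes. Relb, a subunit of NF-kB, had a log2 change of 1.87 (SE 0.35, limma adjusted p = 0.0113), with intensities of 47.3 to 160 in 14w-WD and 2.51 to 22.9 in 2w-WD. Every 2w-WD array of Relb lay below the filter level, an intensity of 34.6. Its mean was 4.85 in 2w-WD, 5.79 in CHOW and 6.72 in 14w-WD, beside a filter level of 5.66 (log2). Relb was thus among the genes tested through its values in the other groups, mostly 14w-WD. Tlr4, the receptor of bacterial lipopolysaccharide, had 1.59 (SE 0.36, limma adjusted p = 0.0184), with 346 to 553 in 14w-WD and 40.9 to 223 in 2w-WD. Of 6 tested genes of interferon signalling 1 rose in the same comparison, Irf1, a transcription factor induced by interferon gamma, at 1.20 (SE 0.30, limma adjusted p = 0.0238). None of these lists had a gene past the test in either comparison with CHOW. Of 8 tested genes of type 2 cytokine signalling, 0 passed in the 3 comparisons, and Chil3, a chitinase-like gene of alternatively activated macrophages, had a log2 change of 1.90 in 2w-WD over CHOW (SE 0.48, limma adjusted p = 0.48). Stat6, which carries the signal of interleukin-4, had a log2 change of 1.21 in 14w-WD over 2w-WD (limma adjusted p = 0.0713). The comparison of 14w-WD with 2w-WD shares arrays with both others, and with the share of bright probe sets as a covariate 0 of all genes passed in it.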

How the data were processed

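Per the labels' protocols, RNA of captured cells was extracted with PicoPure, amplified with RiboAmp HS, biotin-labelled with the TURBO kit and hybridised to Affymetrix Mouse Genome arrays. The authors deposited 1 linear intensity per probe set and array. The summary and normalization steps behind them are not given in the sources used here.

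Probe sets were named through the platform annotation, where 34945 had 1 gene symbol, 932 several and 9160 none. Of the 34945, 34741 matched the RefSeq gene table. Intensities were taken as log2(intensity + 16), so folds understate the change of dim genes. Each gene was represented by its probe set of highest mean. A gene was tested if this mean reached the median over all probe sets (log2 5.66), as 11925 did.

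The 3 pairwise comparisons were tested with limma 3.58.1 (two-sided, lmFit, then eBayes with a trend on intensity) in R 4.3.3 on all 15 arrays, with Benjamini-Hochberg adjustment over all genes tested and a threshold of 0.05. Printed SEs and 95% intervals are limma's. The test was tested on simulated data. The number of arrays limits the precision.

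The members and lists were chosen with earlier results of these data known. All 9 genes were named, and in the lists of chemokines, receptors and signalling genes those past the test or else those with the smallest unadjusted p, and the 3 genes closest in pattern to a member. For cell type lists the rule was kept only for genes past the test. Tested values of other resident macrophage, monocyte and neutrophil markers are printed beside Ccl8 and Ccl2. Alternatives were other pseudocounts (1 and 64), filters, normalizations, probe sets, array weights, a replicate block and leaving out arrays. Using the share of bright probe sets as a covariate and leaving out the 3 arrays of lowest weight were chosen after seeing the data.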

Additional observations from a re-analysis of the deposited data

Results flagged for a closer look

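Ccl8 on CHOW replicate 1 stood at an intensity of 514.71, far above the other 4 CHOW arrays at 59.0 to 115. On the log2(intensity + 16) scale its gap to the next array was larger than Dixon's critical value of 0.71 of the group's range. On this scale no other sample stood apart among 27 groups of 5 arrays examined (9 genes in 3 diets), where chance alone marks about 1 in 20. Without this array the log2 change of Ccl8 in 14w-WD over CHOW was 2.80 (limma adjusted p = 0.0592, within 0.0592 to 0.346 over the fits that leave out 1 array).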

How the results depend on the processing

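Of 566 values of the 7 tested genes under the alternatives, 540 kept their direction and stayed short of the threshold, 9 came to pass the test and 17 changed sign. As 0 of the 7 genes passed as reported, ceasing to pass was not possible. In 14w-WD over 2w-WD the number of members past the test was 0 as reported, 1 with array weights, 1 with a replicate block, 1 without the 3 arrays of lowest weight, and 0 to 2 when 1 array was left out. In 14w-WD over CHOW it was 1 with array weights and 1 without the 3 arrays of lowest weight, and 0 in each fit that left out 1 array. In 2w-WD over CHOW it was 0 under every alternative run. The gene was Ccl8 in all of these, joined by Ccl2 in 14w-WD over 2w-WD without 2w-WD replicate 1. Without the 3 arrays of lowest weight Ccl8 had log2 changes of 2.83 in 14w-WD over 2w-WD (limma adjusted p = 0.0139) and 2.80 in 14w-WD over CHOW (limma adjusted p = 0.0217), within adjusted p of 0.00733 to 0.775 and of 0.00688 to 0.870 over the alternatives that leave out no single array. With the replicate block it had 2.22 in 14w-WD over 2w-WD (limma adjusted p = 0.0333). The labels do not say that the replicate numbers pair the samples. Same-numbered arrays correlated above 0.1 in 7 of 15 pairs (-0.166 to 0.477). Differently numbered arrays were not set beside them, so these values cannot decide whether a pairing exists. Sign changes concerned values that did not pass the test. For Ccl8 in 2w-WD over CHOW the log2 change was between -0.20 and 0.58 when 1 array was left out, with 5 sign changes, and -0.027 without the 3 arrays of lowest weight. For Ccl9 it was -0.10 to 0.16 in 2w-WD over CHOW when 1 array was left out, and with its other probe set 0.12 in 14w-WD over CHOW and 0.075 in 14w-WD over 2w-WD. For Ccl6 it was -0.12 in 2w-WD over CHOW and 0.016 in 14w-WD over 2w-WD with its other probe set, and -0.20 to 0.0038 in 14w-WD over CHOW when 1 array was left out. For Ccl3 in 2w-WD over CHOW it was -0.51 to 0.083 when 1 array was left out (highest without 2w-WD replicate 1) and 0.10 without the 3 arrays of lowest weight. For Ccl5 in 2w-WD over CHOW it was -0.40 (without CHOW replicate 5) to 0.83, and for Ccl2 in 14w-WD over 2w-WD 0.079 with the share of bright probe sets as a covariate. Quantile normalization moved Ccl2 to -1.17 in 14w-WD over 2w-WD and 0.04 in 14w-WD over CHOW. The cause was not tested. Over all genes, the number past the test in 14w-WD over 2w-WD was 1338 as reported and ran from 0 (share of bright probe sets as a covariate) to 3839 (array weights), with 143 without 14w-WD replicate 1 and 3561 without 2w-WD replicate 1, and in 14w-WD over CHOW it was 1 as reported and ran from 0 to 2234 (array weights), with 149 where the fit held those 2 groups only, 1336 without the 3 arrays of lowest weight and 190 without 2w-WD replicate 1. Ccl7 and Ccl24 were tested only in the fit without a filter. Signals near the filter level limit Ccl3, Ccl4 and Ccl7, and 5 arrays per group limit all values.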
